A study of Mus musculus with 6 samples.

Results

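The clustered protocadherins are cadherin-like adhesion proteins encoded by 3 neighbouring gene arrays, alpha, beta and gamma, on mouse chromosome 18. Their members were taken by symbol from the deposited gene table, which gave 58 of 21286 genes: 14 alpha, 22 beta and 22 gamma. The tissue was the lateral ganglionic eminence (LGE) at embryonic day 16.5, a zone of the ventral forebrain that produces striatal projection neurons and olfactory bulb interneurons. The 6 libraries were 3 of wild type littermates and 3 of Dlx1/2 -/- mutants, which lack a pair of homeobox transcription factors of the ganglionic eminences. All came from dissected, frozen tissue on a mixed C57BL/6J, 129S6 and CD1 background. The labels do not say whether a library was 1 embryo or a pool, and a p-value here reflects the variation among these libraries only, which may be technical.

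In the alpha and gamma arrays each gene begins with a variable exon of its own, which has its own promoter and encodes the extracellular domain, and continues into constant exons used by the whole array. Beta genes have no constant exons and carry their coding sequence in a single large exon. Within an array the A, B and other variable members are switched on in a different combination in each neuron through contacts between promoters and distant enhancers that need CTCF and cohesin, while the C-type members at the end of the alpha and gamma arrays are regulated apart from them. The proteins pair on a membrane and bind like combinations on a facing membrane, which is known to serve self-avoidance of dendrites and axons, and the gamma members are also known to support interneuron survival.

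Few members of the family were called between mutant and wild type, and the gamma array showed large shifts from library to library. Of 56 members with enough reads for a test, 2 passed an adjusted p of 0.05 by edgeR's quasi-likelihood test, and both were lower in the mutant. These were Pcdha11 and Pcdhga2. That is 3.57% of the tested members, while 24.0% of all 15326 genes tested passed, 11.2% higher and 12.8% lower. By array, 1 of 13 alpha, 0 of 21 beta and 1 of 22 gamma members passed. DESeq2 called 1, 0 and 1 of them. At an unadjusted p below 0.05 there were 3 alpha, 2 beta and 4 gamma members, 9 of 56 in all, against 36.5% of all genes tested. The variation between libraries that edgeR estimated (biological coefficient of variation) had a median of 0.133 in the family and 0.0987 over all genes tested. Its part in the low share of calls was not tested, and a missing call does not show that a member was unchanged.

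Over the family as a whole the sizes of the fold changes were much like those of other genes, but the arrays differed. The log2 fold change of mutant over wild type lay within 0.5 of 0 for 45 of 56 members and for 12224 of all 15326 genes tested, shares that are nearly equal. By array these were 12 of 13 alpha, 19 of 21 beta and 14 of 22 gamma members. Gamma fold changes ran from -2.83 to 2.47. The median log2 fold change was 0.02 over the family and 0.00 over all genes tested. It was -0.21 in the alpha array, with 10 of 13 members below 0. It was 0.07 in the beta array, with 7 of 21 below 0, and 0.14 in the gamma array, with 8 of 22 below 0. Over all genes, 49.6% were below 0. The 3 mutant libraries lay apart from the 3 wild type libraries for 11 members, 4 lower and 7 higher, while 41.9% of all genes tested were apart. The members apart on the low side were Pcdha5, Pcdha9, Pcdha11 and Pcdhga2, and those on the high side were Pcdhb8, Pcdhb10, Pcdhb15, Pcdhga11, Pcdhgc3, Pcdhgc4 and Pcdhgc5.

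**Figure D1:**
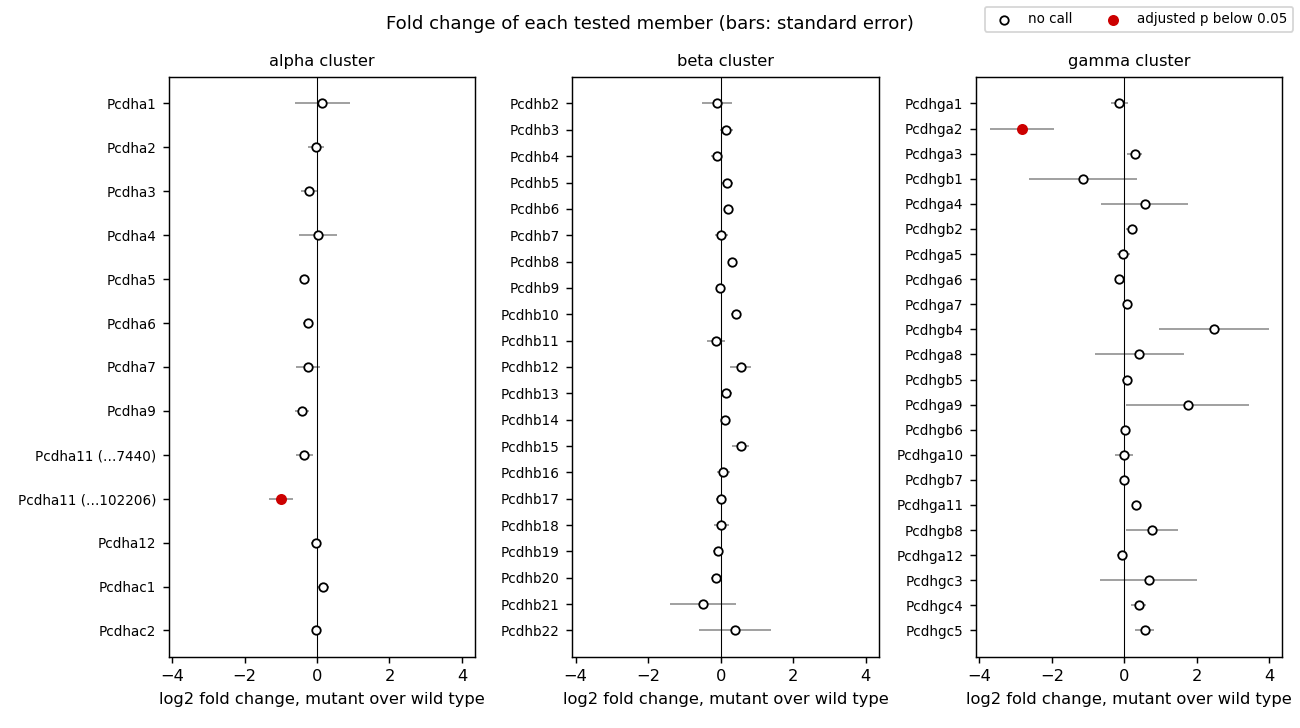
Log2 fold change (mutant over wild type, horizontal axis) of each of the 56 tested members, in genomic order from top to bottom. Bars are the standard error of log2 CPM over libraries, which was computed apart from the fitted fold change. The filled points, Pcdha11 at -0.99 and Pcdhga2 at -2.83, are the 2 that passed the test, and the widest bars are in the gamma array.

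The targeted genes stood as labelled. Dlx1 was at 831 to 898 CPM (library-scaled counts, here after TMM scaling) in wild type and at 109 to 138 CPM in the mutant, and Dlx2 went from 419 to 471 CPM down to 15.5 to 18.7 CPM. Total counts ran from 10711630 in wild type replicate 1 to 16588359 in wild type replicate 3, so a floor of 3 counts corresponded to 0.181 to 0.287 CPM. In bulk tissue fewer cells of a type and less RNA per cell cannot be told apart, and several marker lists moved with genotype. The summed markers of neurons of any class were at 6901 to 7645 CPM in wild type and 6137 to 6365 CPM in the mutant, with 4 of 14 higher and 6 lower. Radial glia markers summed to 2438 to 2736 and 3588 to 3621 CPM (6 of 11 higher), and LGE markers to 4644 to 4979 and 2102 to 2323 CPM (2 of 14 higher, 11 lower). Pallial glutamatergic markers summed to 30.0 to 85.5 and 171 to 266 CPM (6 of 9 tested higher). In that list Tbr1 and Eomes went the other way without a call, from 12.6 to 6.91 CPM and from 8.62 to 4.34 CPM on average. Oligodendrocyte precursor markers summed to 78.3 to 113 and 126 to 143 CPM (2 of 5 higher), and microglial markers to 47.0 to 56.4 and 59.2 to 70.8 CPM (1 of 7 higher). Endothelial markers gave 134 to 154 and 129.6 to 134 CPM (1 of 6 lower), and mural and meningeal markers 126 to 136 and 139.6 to 154 CPM (1 of 5 tested higher, 1 lower). Choroid plexus markers gave 7.47 to 10.1 and 29.7 to 36.1 CPM (2 of 3 tested higher, 1 lower), with Otx2 at 6.50 and 31.2 CPM while Ttr, which defines that tissue, was at 0.130 and 0.105 CPM on average, with at most 6 counts in a library. Red blood cell markers gave 436 to 644 and 582 to 778 CPM (1 of 6 tested higher). No marker found in the table was at 0 in every library. The part of these shifts in the protocadherin values was not tested.

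The alpha array spans bases 36930184 to 37187661 of chromosome 18 on GRCm38, plus strand. Its 14 members summed to 83.4, 90.4 and 97.2 CPM in wild type replicates 1 to 3 and to 84.2, 81.6 and 74.0 CPM in the mutant replicates. The groups overlapped, since wild type replicate 1 lay below mutant replicate 1, and the means were 90.3 ± 6.91 and 79.9 ± 5.33 CPM (SD, n = 3 each), a log2 ratio of -0.18. The 12 variable members alone gave -0.26. The 2 C-type members, Pcdhac1 and Pcdhac2, gave 0.01, at 25.3 ± 1.77 and 25.6 ± 0.790 CPM.

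Pcdhac2, the C-type member at the end of the array, was its top member in each of the 6 libraries, with 22.7% to 27.7% of the alpha counts. It was at 19.2, 20.8 and 22 CPM in wild type and 19.8, 20.6 and 20.5 CPM in the mutant. The mutant values lay inside the wild type range (log2 fold change -0.03 ± 0.06 SE, adjusted p = 0.840). Per length it stood at 3.51 CPM per kilobase of longest annotated transcript in wild type and 3.45 in the mutant. Pcdhac1, the other C-type member, was at 4.78, 3.83 and 5.31 CPM in wild type and 4.88, 5.13 and 5.72 CPM in the mutant. Its groups overlapped (0.17 ± 0.15, adjusted p = 0.507).

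Pcdha6, a variable member and the second per length in the array at 1.79 and 1.49 CPM per kilobase, was at 11, 9.36 and 8.39 CPM in wild type and 7.31, 8.42 and 8.24 CPM in the mutant. Mutant replicate 2 reached just above the lowest wild type library, and the fold change of -0.25 ± 0.13 did not pass (adjusted p = 0.222).

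Pcdha11 was counted lower in the mutant. This record, ENSMUSG00000102206, is 1 of 2 that the deposited table names Pcdha11, and the other, ENSMUSG00000007440, lies where RefSeq places Pcdha10. ENSMUSG00000102206 was at 6.98, 6.82 and 8.51 CPM in wild type and 5.42, 2.47 and 3.33 CPM in the mutant. Every mutant library lay below every wild type library, with mutant replicate 1 nearest to them. The log2 fold change was -0.99 ± 0.34 (adjusted p = 0.0319). The call was lost when any library other than mutant replicate 1 was left out, at adjusted p = 0.0507 to 0.0992, with fold changes of -0.77 to -1.06. Without mutant replicate 1 it was -1.36 (adjusted p = 0.00614). ENSMUSG00000007440 was at 4.21, 2.53 and 3.44 CPM in wild type and 2.86, 2.34 and 2.70 CPM in the mutant, with overlapping groups and no call (-0.35 ± 0.23, adjusted p = 0.319).

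A pair of further variable alpha members lay apart between genotypes without passing. Pcdha5 was at 6.31, 6.69 and 7.42 CPM in wild type and 5.49, 5.19 and 5.41 CPM in the mutant (-0.35 ± 0.07, adjusted p = 0.0889). Pcdha9 was at 5.55, 6.11 and 6.88 CPM in wild type and 5.30, 4.94 and 3.65 CPM in the mutant (-0.42 ± 0.19, adjusted p = 0.132). Both were named after their values were seen. Pcdha8 had only 4, 9 and 7 counts in wild type and 4, 4 and 10 in the mutant and was not tested. The other variable members, Pcdha1, Pcdha2, Pcdha3, Pcdha4, Pcdha7 and Pcdha12, had fold changes between -0.25 and 0.14 with overlapping groups.

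**Figure D2:**
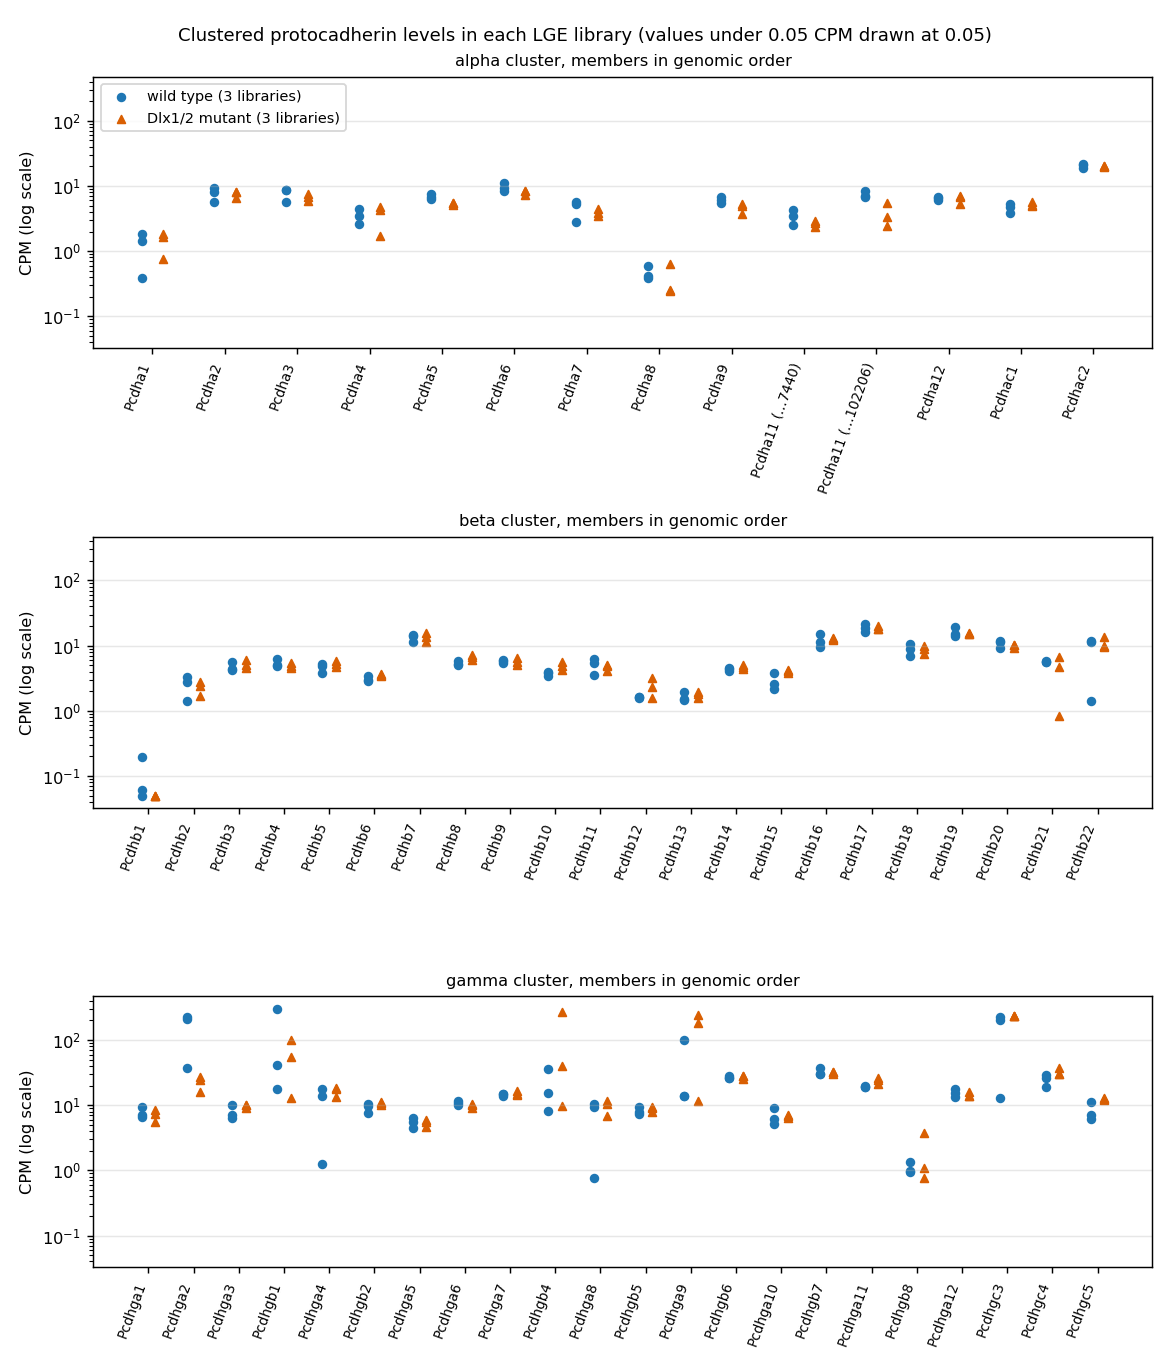
CPM of each of the 58 members (log scale, vertical axis) in each of the 3 wild type libraries (circles) and 3 mutant libraries (triangles), in genomic order within each array, with values under 0.05 CPM drawn at 0.05. Points of both genotypes lie close together for most alpha and beta members, whereas Pcdhga2, Pcdhgb1, Pcdhgb4, Pcdhga9 and Pcdhgc3 each spread from under 20 to over 200 CPM.

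The beta array, at 37264938 to 37524479, held the steadiest total. Its 22 members summed to 148, 143 and 142 CPM in wild type and 146, 145 and 159 CPM in the mutant. The means were 144 ± 3.25 and 149.9 ± 7.86 CPM, a log2 ratio of 0.06 with overlapping groups. Pcdhb17 was the top member in each of the 6 libraries, with 11.3% to 14.6% of the beta counts, at 21.5, 18.7 and 16.2 CPM in wild type and 18.1, 20.2 and 17.9 CPM in the mutant. Its mutant values lay inside the wild type range (0.00 ± 0.13, adjusted p = 0.995), and per length it stood at 4.04 and 4.03 CPM per kilobase. Pcdhb7, the second per length at 3.80 and 3.87 CPM per kilobase, was at 11.4, 14 and 14.6 CPM in wild type and 11.3, 13.7 and 15.6 CPM in the mutant (0.02 ± 0.17, adjusted p = 0.951). Here too each genotype spanned nearly the same range.

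Among the other beta members, those apart between genotypes were all on the high side and none passed. Pcdhb10 was at 3.73, 3.96 and 3.38 CPM in wild type and 4.27, 4.87 and 5.6 CPM in the mutant (0.41 ± 0.13, adjusted p = 0.117). Pcdhb15 was at 3.73, 2.14 and 2.53 CPM in wild type and 3.78, 4.24 and 4.03 CPM in the mutant, the groups only just apart (0.55 ± 0.24, adjusted p = 0.120). It passed, on the high side, when wild type replicate 1 was left out. Pcdhb8 was at 5.74, 5.26 and 5.07 CPM in wild type and 5.91, 7.15 and 6.79 CPM in the mutant (0.31 ± 0.10, adjusted p = 0.15).

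The last members of the array each had 1 library that stood apart, in different genotypes. Pcdhb22 was at 1.43, 11.2 and 11.8 CPM in wild type and 9.87, 9.68 and 13.7 CPM in the mutant, so that wild type replicate 1 alone was low. Pcdhb21 was at 5.64, 5.65 and 5.73 CPM in wild type and 4.69, 0.823 and 6.60 CPM in the mutant, where mutant replicate 2 alone was low. The low libraries still held 15 and 13 counts of these genes. Their fold changes were 0.39 ± 1.0 (adjusted p = 0.637) and -0.49 ± 0.92 (adjusted p = 0.557), and without the library that stood apart they were -0.06 and -0.01. At the other end of the array Pcdhb1 was near absent, with 0, 3 and 1 counts in wild type and 0 in each mutant library, at or under the floor in all, and was not tested.

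The gamma array, at 37661793 to 37841873, was the most highly counted. Its 22 members summed to 694, 593 and 831 CPM in wild type and 805, 827 and 789.8 CPM in the mutant, with overlapping groups. The means were 706 ± 119 and 807 ± 18.7 CPM, a log2 ratio of 0.19. Without the 3 C-type members the sums were 458, 554 and 567 CPM in wild type and 532, 549 and 508 CPM in the mutant, a log2 ratio of 0.01. The wild type libraries thus spread widely in the full sum, and wild type replicate 2 was the lowest of all 6 through its C-type counts. With sums of the deposited FPKM the ratio was 0.02. For 49 of the 58 family members the length implied by the FPKM matched the sum of all annotated transcripts in GENCODE M21. This lowers the weight of members with several transcripts. Pcdhgc3 stood at 9536 bases against 4687 for its longest transcript, while Pcdhga2, with 1 transcript, stood at 4689.

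**Figure D3:**
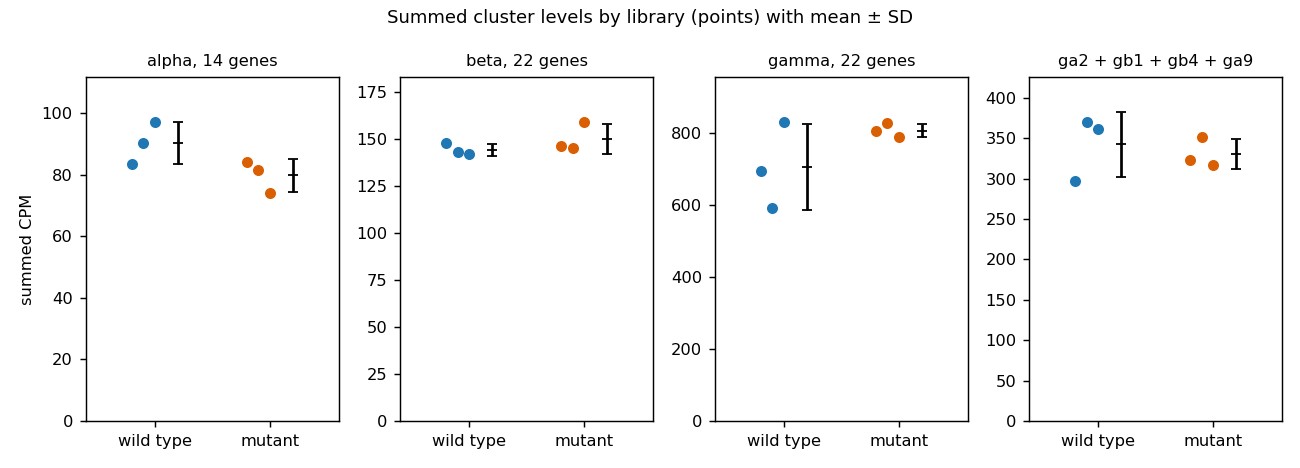
Summed CPM (vertical axes, from 0) of the alpha, beta and gamma arrays and of Pcdhga2, Pcdhgb1, Pcdhgb4 and Pcdhga9 together, with 1 point per library and bars for the mean ± SD over 3 libraries of each genotype. The genotypes overlap in all 4 panels, with log2 ratios of -0.18, 0.06, 0.19 and -0.05.

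Pcdhga2, an A-type variable member near the start of the array, was counted lower in the mutant. It was at 229, 212 and 37.6 CPM in wild type and 27.3, 15.9 and 24.0 CPM in the mutant. The groups did not overlap, but wild type replicate 3 lay far closer to the mutant libraries than to the other wild type libraries. The log2 fold change was -2.83 ± 0.88 (adjusted p = 0.0116). Leaving out each library in turn kept the call at -2.48 to -3.30, with adjusted p of 6.55e-05 to 0.0463. It did not pass an adjusted p of 0.01.

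A set of 3 further variable members showed the same kind of swing without a call, with different libraries high for each. Pcdhgb1, a B-type member, was at 17.9, 41.8 and 303 CPM in wild type and 99.4, 54.6 and 12.9 CPM in the mutant, with its maximum in wild type replicate 3 (-1.13 ± 1.49, adjusted p = 0.469). Without that library the fold change turned to 0.88. Pcdhgb4, also B-type, was at 35.7, 15.5 and 8.03 CPM in wild type and 9.87, 269.7 and 40.3 CPM in the mutant, where mutant replicate 2 was far above the rest (2.47 ± 1.51, adjusted p = 0.140). Without it the fold change was 0.37. Pcdhga9, A-type, was at 14, 101 and 13.9 CPM in wild type and 186, 11.5 and 239.8 CPM in the mutant. It was high in mutant replicates 1 and 3 and low in mutant replicate 2, with overlapping groups (1.75 ± 1.69, adjusted p = 0.275). Its fold change was 3.38 without wild type replicate 2 and 1.19 without mutant replicate 3. Per length it stood at 9.08 CPM per kilobase in wild type, below Pcdhga2, Pcdhgc3 and Pcdhgb1, and at 30.9 in the mutant, where it was second to Pcdhgc3. Pcdhgb1 and Pcdhgb4 were named after their values were seen.

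Every library thus had at least 1 of these 4 genes above 180 CPM, but not the same gene. It was Pcdhga2 in wild type replicates 1 and 2, Pcdhgb1 in wild type replicate 3, Pcdhga9 in mutant replicates 1 and 3, and Pcdhgb4 in mutant replicate 2. The sum of the 4 moved far less than its parts, at 297, 370.4 and 362 CPM in wild type and 323, 352 and 317 CPM in the mutant. The groups overlapped, with a log2 ratio of -0.05, and the highest sum was 1.25 times the lowest. The 4 were grouped after their values were seen. By type, the 12 A members summed to 329, 424 and 172 CPM in wild type and 341, 144 and 377 CPM in the mutant. The 7 B members summed to 129, 129 and 395 CPM and to 191, 406 and 131 CPM. The 3 C members summed to 236, 39 and 263 CPM in wild type and 273, 278 and 282 CPM in the mutant, a log2 ratio of 0.63, and theirs was the type whose groups lay apart, with wild type replicate 2 far below the rest. The libraries low in A, wild type replicate 3 and mutant replicate 2, were those high in B.

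**Figure D4:**
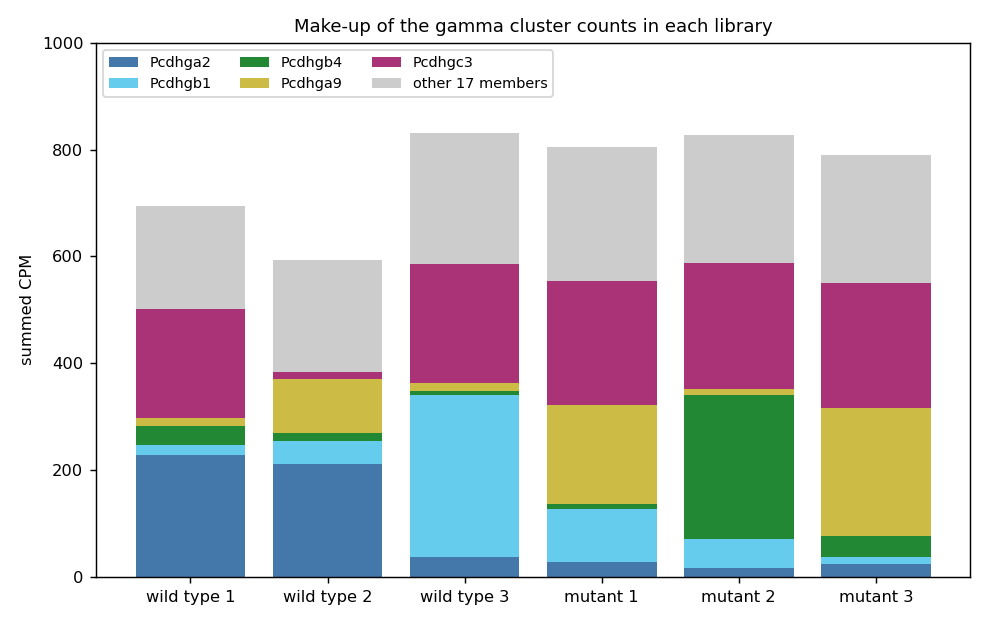
Summed CPM of the gamma array in each library (bars from 0), split into Pcdhga2, Pcdhgb1, Pcdhgb4, Pcdhga9, Pcdhgc3 and the other 17 members. The member that takes the tall lower segment changes from library to library within a genotype, and Pcdhgc3 is nearly missing from wild type replicate 2.

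Pcdhgc3, the C-type member with the highest level per length of the array over all 6 libraries, was at 204, 13.0 and 223 CPM in wild type and 231, 236 and 233 CPM in the mutant. The mutant libraries were nearly equal, and wild type replicate 2 stood far below the other 5. The fold change of 0.67 ± 1.35 did not pass (adjusted p = 0.563), and without wild type replicate 2 it was 0.12 (adjusted p = 0.200). Per length it stood at 31.3 CPM per kilobase in wild type, below Pcdhga2 at 34.1, and at 49.8 in the mutant. Pcdhgc4, the C-type member known for its part in interneuron survival, was at 26.1, 19.0 and 28.7 CPM in wild type and 30.0, 29.9 and 37.1 CPM in the mutant. Each mutant library lay above each wild type library, at 0.40 ± 0.21 (adjusted p = 0.113). The deposited table calls this record, ENSMUSG00000023036, Pcdhga8, while GENCODE M21 calls it Pcdhgc4. Pcdhgc5, the last gene of the array, was at 6.22, 7.08 and 11.3 CPM in wild type and 12.8, 11.9 and 12.3 CPM in the mutant. The groups were apart, with wild type replicate 3 close to the mutant libraries (0.56 ± 0.26, adjusted p = 0.0858). Without that library it passed, at 0.88 (adjusted p = 0.00378).

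A further pair of A-type members had 1 low library each, and it was the same library. Pcdhga4 was at 1.24, 14 and 17.5 CPM in wild type and 17.8, 18.7 and 13.5 CPM in the mutant. Pcdhga8 (ENSMUSG00000103897) was at 0.765, 9.55 and 10.4 CPM in wild type and 11.6, 6.83 and 10.3 CPM in the mutant. Wild type replicate 1 was low for both, with 13 and 8 counts. It was also the shallowest library, but CPM is scaled for depth, and the cause of the low values was not tested. The fold changes were 0.56 ± 1.21 (adjusted p = 0.536) and 0.41 ± 1.23 (adjusted p = 0.661).

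Most of the other gamma members were steadier. Pcdhga11 was at 19.0, 19.8 and 19.1 CPM in wild type and 26.6, 21.2 and 24.2 CPM in the mutant, apart but short of the threshold (0.31 ± 0.10, adjusted p = 0.0562). It passed when mutant replicate 2 was left out. Pcdhgb7 and Pcdhgb6, B-type members, were at 32.2 ± 4.12 and 26.7 ± 1.22 CPM in wild type and at 31.8 ± 1.33 and 27.0 ± 1.92 CPM in the mutant (SD, n = 3 each). Their fold changes were -0.02 and 0.01. Pcdhgb8, which GENCODE M21 lists as a polymorphic pseudogene, was lowest of the array per length, at 0.235 and 0.405 CPM per kilobase.

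Spread between libraries of the same genotype was wide in part of the family. A range of over 5-fold between libraries of 1 genotype was seen in 9 of 56 members, which is 16.1%, against 1.38% of all genes tested. None of the alpha members had such a range, 2 of 21 beta members did (Pcdhb21 and Pcdhb22), and 7 of 22 gamma members did (31.8%). The 7 were Pcdhga2, Pcdhgb1, Pcdhga4, Pcdhgb4, Pcdhga8, Pcdhga9 and Pcdhgc3. The median range within a genotype was 1.52-fold in the alpha array, 1.35-fold in the beta array and 1.55-fold in the gamma array, against 1.24-fold over all genes tested. Over the 15 gamma members without a wide range, the sums were 192, 186 and 218 CPM in wild type and 222, 214 and 216 CPM in the mutant, a log2 ratio of 0.13 with overlapping groups. That setting was chosen after seeing the data, and under it no gamma member passed by edgeR's test, since Pcdhga2 is among those left out.

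The spread of counts over members can be put as an effective number, the number of equally counted members that would give the same evenness. It was 10.2 to 11.2 for the 14 alpha genes, 16.3 to 17.6 for the 22 beta genes and 8.28 to 10.3 for the 22 gamma genes over the 6 libraries. At least 10 reads were counted in 12 to 14 alpha, 21 beta and 21 or 22 gamma members of a library. In the alpha and gamma arrays these reads may include reads of shared exons, so that they do not show each member to be transcribed.

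Exons shared between members bear on how far a count belongs to 1 gene. In GENCODE M21 all 14 alpha genes contain the same exons of 59 bases (37156155 to 37156213), 89 bases (37159265 to 37159353) and 2712 bases (37184946 to 37187657). All 22 gamma genes contain exons of 59 bases (37825021 to 37825079) and 89 bases (37833265 to 37833353). Their last exon starts at 37839903 and ends at 37841873 in 17 genes (1971 bases), but at 37841870 in 5 genes (1968 bases). Those 5 are Pcdhga2, Pcdhgb1, Pcdhgb4, Pcdhga9 and Pcdhgb8. Of the 5, 4 exceeded 100 CPM in at least 1 library and 4 had a range of over 5-fold within a genotype, and of the other 17 these numbers were 1 and 3. The fifth, Pcdhgb8, had a range of 4.85-fold, just under that limit, at 0.957, 0.975 and 1.33 CPM in wild type and 3.78, 1.08 and 0.755 CPM in the mutant. The 4 are the swinging genes described above, and the exception among the 17 over 100 CPM was Pcdhgc3. Since the 4 were grouped after their values were seen, these counts are no independent test.

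The share of sequence held by 1 member alone also differed between the arrays. Stretches of 100 bases in a member's transcripts were compared with those of the other members only, and genes outside the family were not compared. The share found in no other member had a median of 44.9% in the alpha array (43.3% to 58.4%). It was 99.8% in the beta array (92.3% to 100%) and 56.4% in the gamma array (37.3% to 74.1%). Within first exons the medians were 94.8%, 99.8% and 100%, and the lowest gamma first exon was that of Pcdhga4 at 62.6%. How the authors' counting placed reads of the shared exons was not given in the labels or headers, and its part in the gamma swings was not tested. GENCODE M21 may not be the release they used. Alpha and gamma values of single members are uncertain for this reason. A read counted for more than 1 member would also enter the sums and effective numbers of these arrays more than once. Most beta values rest on sequence nearly all of which is found in no other member. By stretches of 100 bases the least unique beta genes were Pcdhb21 at 92.3% and Pcdhb22 at 94.6%. By stretches of 50 bases Pcdhb12 (88.0%) was below Pcdhb21 (88.7%), and Pcdhb11, Pcdhb9 and Pcdhb7 (90.5% to 91.4%) were below Pcdhb22 (92.0%). Pcdhb21 and Pcdhb22 overlap on the plus strand (37513621 to 37518325 and 37517871 to 37524479) and are the 2 beta members with a range of over 5-fold. The part of this overlap in their values was not tested.

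In the authors' deposited table, 9 of 58 members had a p-value below 0.05, 2 alpha, 1 beta and 6 gamma, against 23.6% of the table. The authors' deposited table gave 6.69e-10 for Pcdhga2, 0.000159 for Pcdha11 (ENSMUSG00000102206), 0.00199 for Pcdhgb4 and 0.0259 for Pcdhga9. For the last pair edgeR's quasi-likelihood test gave an unadjusted p of 0.0517 for Pcdhgb4 and of 0.136 for Pcdhga9. Whether the deposited p-values are adjusted is not stated.

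Genes known to act on the clusters were also counted. Of 22 regulators tested, covering CTCF, cohesin, heterochromatin and DNA methylation genes, 2 were higher in the mutant and 0 lower, against 11.2% and 12.8% of all genes tested, with a median log2 fold change of 0.03. Nipbl, the cohesin loader, rose from 245 ± 22.1 to 289 ± 3.35 CPM (0.24 ± 0.08, adjusted p = 0.0328). This call did not hold with the replicate number as a block (adjusted p = 0.0614). It held without wild type replicate 1, and was lost when any other library was left out (adjusted p = 0.0547 to 0.0971). Ctcf itself was at 214 ± 12.2 and 216 ± 10.4 CPM (0.01 ± 0.06, adjusted p = 0.912). Among the uncalled regulators of highest level, Trim28, a corepressor, was at 533 ± 47.5 and 542 ± 15.3 CPM (adjusted p = 0.841), and the cohesin subunit Rad21 was at 383 ± 14.8 and 424 ± 6.25 CPM in wild type and mutant (adjusted p = 0.0512). Rad21 passed with RLE scaling (0.048) and without wild type replicate 1 (0.0317).

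Of 24 tested genes whose proteins bind or act on protocadherins, 1 was higher and 4 were lower, with a median log2 fold change of -0.03. These 5 calls are a share near the 24.0% called over all genes tested, so nothing is read from them about partners as a group. Marcks, an actin-linked substrate of protein kinase C that acts downstream of gamma protocadherins in dendrites, rose from 1162 ± 37.8 to 1507 ± 30.5 CPM (0.38 ± 0.03, adjusted p = 0.00149). Prkca, a protein kinase C, fell from 78.8 ± 8.51 to 37.2 ± 1.57 CPM (-1.08 ± 0.09, adjusted p = 8.1e-05). Nckap1, a subunit of the actin-regulating WAVE complex, fell from 246 ± 19.1 to 193 ± 13.7 CPM (-0.34 ± 0.09, adjusted p = 0.011). The related kinases that protocadherins bind were lower too. Ptk2b fell from 2.75 ± 1.1 to 0.953 ± 0.230 CPM (-1.55 ± 0.40, adjusted p = 0.0153) and Ptk2 from 137 ± 2.53 to 118 ± 5.81 CPM (-0.22 ± 0.04, adjusted p = 0.0194). Both kinases lost the call without mutant replicate 2 (adjusted p = 0.0576 and 0.0695), without mutant replicate 3 (0.0564 and 0.0523), and Ptk2b also without wild type replicate 2 (0.053). The uncalled partners of highest level were Nlgn2, a postsynaptic adhesion protein, at 424 ± 10.8 and 389 ± 17.1 CPM, and the GTPase Rac1 at 349.8 ± 4.30 and 336 ± 15.6 CPM.

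The genes around the arrays were a local comparison. Of 17 other genes of the table lying between the outermost members, 9 were tested and 0 passed by edgeR. The most highly counted of them, Taf7, a subunit of the general transcription factor TFIID, was at 27.7 ± 1.20 and 25.4 ± 1.71 CPM, and it was named after its values were seen. Of the 10 protein-coding genes before the alpha array, 8 were tested and 2 were lower, and of the 10 after the gamma array 1 was higher and 2 were lower. Over all 27 neighbours tested, 5 passed, a share not far from the 24.0% of all genes tested. Rell2, beyond the gamma array, fell from 24.8 ± 0.270 to 12.4 ± 2.15 CPM (-0.99 ± 0.14, adjusted p = 0.000897). Hars, a histidyl-tRNA synthetase before the alpha array, fell from 91.3 ± 2.16 to 74.9 ± 2.18 CPM (-0.29 ± 0.03, adjusted p = 0.00686). Of the other called neighbours, 0610009O20Rik was higher at 0.27 (adjusted p = 0.0142), Wdr55 lower at -0.36 (adjusted p = 0.0287) and Fchsd1 lower at -0.29 (adjusted p = 0.031). All 3 lost the call with the replicate block, at adjusted p of 0.0533, 0.0757 and 0.0626, and Fchsd1 lost it without each library in turn (0.051 to 0.086). 0610009O20Rik also lost it without mutant replicate 2 (0.0507), and Wdr55 without any library but mutant replicate 2 or wild type replicate 3 (0.0574 to 0.0892). The uncalled neighbours of highest level were Rnf14 at 172 ± 6.16 and 156 ± 2.89 CPM (adjusted p = 0.0605) and Ik at 151 ± 6.97 and 156 ± 5.48 CPM (adjusted p = 0.574), in wild type and mutant.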

How the data were processed

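Raw counts, FPKM and a p-value per gene for 6 libraries were deposited by the authors in 1 table, per the file headers. Builds GRCm38.p4 and mm10 and the tools StringTie 1.3.0, HISAT2 2.0.4 and edgeR are listed in the submitters' processing notes. Those sources do not name the counter, the annotation release or a strand setting. The deposited FPKM served only for an alternative sum, and the authors' p-value only for counts and the values given.

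The counts were fitted with edgeR 4.0.16 in R 4.3.3 (filterByExpr by group, TMM, quasi-likelihood F test, two-sided, Benjamini-Hochberg over 15326 genes, threshold 0.05). CPM is TMM-scaled. Log2 fold changes are edgeR's fitted values. Standard errors are those of the difference in mean log2 CPM over libraries, 0.5 being added to a count. They were computed apart from the fit and are not the errors of the fitted fold changes. This matters most for genes of wide range within a genotype. The script was tested on simulated counts with a biological coefficient of variation of 0.122 for every gene. That check does not cover members of wider variation, such as Pcdhga2 at 0.466 and Pcdhga9 at 0.833. Total counts were 10711630 to 16588359, and floors cover counting error only. Positions, lengths and exons came from GENCODE M21 (GRCm38). Members, gene lists and tests were chosen with earlier results of these data known. Values in every library were planned for called members, C types and the 2 members of each array highest per length. Sums carry no test, and a read counted for more than 1 member would enter them more than once. From each list of regulators, partners and neighbours, up to 6 called genes and the 2 highest uncalled genes are named, except 1 called regulator that is not reported here. Alternatives were RLE scaling, no filter, DESeq2 1.42.0, adjusted p below 0.01, a replicate block and leaving out each library.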

Additional observations from a re-analysis of the deposited data

How the results depend on the processing

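Deviations of libraries with the same replicate number correlated at -0.176, 0.043 and -0.168, and those with different numbers at -0.136 to 0.25. With 3 libraries per genotype these values cannot show whether the libraries were paired. With the replicate number as a block, 1 alpha, 0 beta and 1 gamma genes passed, as without it, and 2681 genes of the whole table against 3673. An adjusted p below 0.01 left 0 alpha, 0 gamma and 1991 genes of the table. Leaving out each library in turn gave 0 to 1 alpha genes, 0 to 1 beta genes (Pcdhb15 without wild type replicate 1) and 1 to 2 gamma genes. The additional gamma genes were Pcdhga3 without wild type replicate 2, Pcdhgc5 without wild type replicate 3 and Pcdhga11 without mutant replicate 2. With members of wide range left out, chosen after seeing the data, 0 gamma genes passed. The log2 ratio of the gamma sum was 0.19, and 0.01 without C types, and 0.08 to 0.33 with each library left out. Uncalled fold changes that turned sign with a library left out were Pcdhac2 (0.02) and Trim28 (-0.05) without wild type replicate 3, Pcdhb7 (-0.10 without mutant replicate 3 and -0.08 without wild type replicate 1, up to 0.13), and Pcdhb22 (-0.06, up to 0.72) and Pcdhga8 (-0.07, up to 0.79) without wild type replicate 1. Pcdhgb1 ran from -1.85 without mutant replicate 1 to 0.88 without wild type replicate 3. The cause was not tested. RLE scaling, no filter on low counts and DESeq2 left the 3 array counts at 1, 0 and 1. The shallowest library held 10711630 counts, and members under about 10 counts in it have little precision.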
